A study of Mus musculus with 14 samples.

Results

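The abundant Zfp genes are the mouse protein-coding genes named Zfp followed by a number whose raw read count averaged at least 200 over the 14 libraries of the series. Of 54532 rows in the count table, 365 were protein-coding Zfp genes, and 127 of these met the rule. The members were selected on their mean count over all 3 groups together, so a high count is no finding about them. Zfp606 and Zfp958 lay just inside the limit with mean counts of 200.5 and 202, and Zfp579 and Zfp866 lay just outside it with 198 and 191. All 127 members passed the filter on low counts, and 187 of the 238 Zfp genes below the limit did so.

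Zfp genes encode zinc finger proteins, most of which carry C2H2 fingers, short loops in which a pair of cysteines and a pair of histidines hold a zinc ion and whose tips read bases of DNA. Many also carry a KRAB box, which recruits the corepressor TRIM28 and through it histone deacetylases, histone methyltransferases and heterochromatin proteins, and such genes are known for silencing retroelements and for keeping imprints. Others bind RNA, spindle microtubules or ribosomes, and their shared name says nothing of a shared function.

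The tumours came from 4T1 cells, a mouse line used as a model of triple-negative breast cancer, of which 1000000 were placed under the skin at the mammary gland. On day 9, with tumours near 100 mm3, intraperitoneal injections were started and repeated at intervals of 6 days to give 3 cycles. Whole tumours were sequenced as bulk RNA 3 days after the last cycle. The 3 groups were PBS alone (PBS, n = 4), cyclophosphamide at 100 mg/kg (CTX100, n = 5) and cyclophosphamide at 140 mg/kg (CTX140, n = 5), cyclophosphamide being a DNA-alkylating prodrug. All groups carried the same tumour line, and the labels give no genetic change in cells or mice. The labels call the cells TNBC cells, but each library is whole tumour tissue that also held host cells. The labels do not tie each library to its own mouse, and the p-values therefore speak only of the variation among these samples, which may be technical. A lower level in bulk tissue can mean fewer cells of a type or less RNA in each cell, and these cannot be told apart.

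Library totals ran from 14423875 to 19282726 counts. The 127 members together took 0.453% ± 0.042 (SD, n = 4) of the counts in PBS tumours, 0.408% ± 0.0198 (n = 5) in CTX100 tumours and 0.376% ± 0.0266 (n = 5) in CTX140 tumours. CTX140 replicate 1 had the highest share of mitochondrial counts, 9.81% against 3.09 to 6.87% in the other libraries. Without it, 31 of the 36 members called lower at CTX140 (below) were still called, and without any other single CTX140 library 26 to 31 were. On the first principal component of all genes the CTX140 libraries were spread out, from 10.6 to 83.9, with replicates 1 and 2 at the far end. Values per gene are given as CPM, counts per 1000000 after TMM scaling of the libraries, and levels are compared between genes only as the deposited FPKM, which also divides by gene length.

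The fingers that define the family are shown for members on which the results turn: Zfp146 and Zfp760, the members called lower at both doses, Zfp260 and Zfp266, also lower at CTX140, and Zfp36, the only member called higher. Each line gives the coding strand of a single finger, 5′ to 3′, with the codons of the zinc-binding cysteines and histidines in capitals. In the first 4 the finger is the first in the protein that runs into the conserved linker to the next finger, and the linker is included. Sequences are from GENCODE M21 transcripts on mm10, at chr7:30162316-30162396 (exon 2 of 2, minus strand), chr7:30105073-30105153 (exon 3 of 3, plus strand), chr17:21722473-21722553 (exon 6 of 6, plus strand), chr9:20499599-20499679 (exon 9 of 9, minus strand) and chr7:28378158-28378217 (exon 2 of 2, minus strand).
Zfp146: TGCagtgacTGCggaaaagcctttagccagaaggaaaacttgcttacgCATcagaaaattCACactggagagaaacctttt
Zfp260: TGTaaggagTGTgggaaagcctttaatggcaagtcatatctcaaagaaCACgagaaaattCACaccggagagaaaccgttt
Zfp760: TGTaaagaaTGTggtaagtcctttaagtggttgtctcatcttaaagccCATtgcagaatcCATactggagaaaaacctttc
Zfp266: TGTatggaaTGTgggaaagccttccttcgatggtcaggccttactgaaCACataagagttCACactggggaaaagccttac
Zfp36: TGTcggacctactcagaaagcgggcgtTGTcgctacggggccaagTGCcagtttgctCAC
The first 4 share the spacing of 2 cysteine and 2 histidine codons and all fall in the last exon of their gene. Zfp36 differs in kind: its finger has 3 cysteines and 1 histidine, the CCCH form that binds RNA, and no C2H2 finger was found in its protein.

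In the translated proteins of the 127 members the median number of C2H2 fingers was 9 and the highest was 33, in Zfp462. A KRAB box was found in 44 members and a SCAN domain, a dimerisation domain, in 8. No C2H2 finger was found in 4 members (Zfp36, Zfp330, Zfp503 and Zfp703). KRAB boxes were found by pattern less often among the members (34.6%) than among the Zfp genes below the count limit (61.3%, or 146 of 238). Members also lay less often within 200 kb of another Zfp gene, 58 of 127 (45.7%) against 173 of 238 (72.7%). These shares describe 2 groups split by their mean count and were not tested. Members were on 19 chromosomes, most often on chromosome 7 (24 members) and chromosome 17 (17 members).

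At the higher dose most members had lower levels than in PBS tumours. In CTX140 against PBS, 36 of the 127 members (28.3%) fell and 1 rose, by edgeR's quasi-likelihood test at an adjusted p under 0.05. Of all 15360 genes tested, 10.1% were called lower and 11.1% higher. Among the 8883 other protein-coding genes with a mean count of at least 200, the shares were 14.5% lower and 8.05% higher. The median log2 fold change was -0.27 over the members, 0.02 over all genes and -0.05 over the other abundant protein-coding genes. The fold change was below 0 for 106 members (83.5%), against 47.8% of all genes and 55.4% of the other abundant ones. In 24 members (18.9%) every CTX140 library was below every PBS library, against 6.91% of all genes and 9.39% of the other abundant ones. In 1 member, Zfp36, every CTX140 library was above, against 7.34% of all genes. The count of members that fell was 19 when PBS replicate 3 was left out, 20 without PBS replicate 4 and 19 when only the PBS and CTX140 libraries were fitted. Over all genes the count called lower was also smaller in these fits: 885 of 15733, 953 of 15602 and 859 of 15002, against 1557 of 15360. With a limit of 500 counts 13 members fell, but fewer genes meet that limit, so 13 is no loss against 36. All 36 kept a negative sign under every alternative in which they were refitted.

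**Figure D1:**
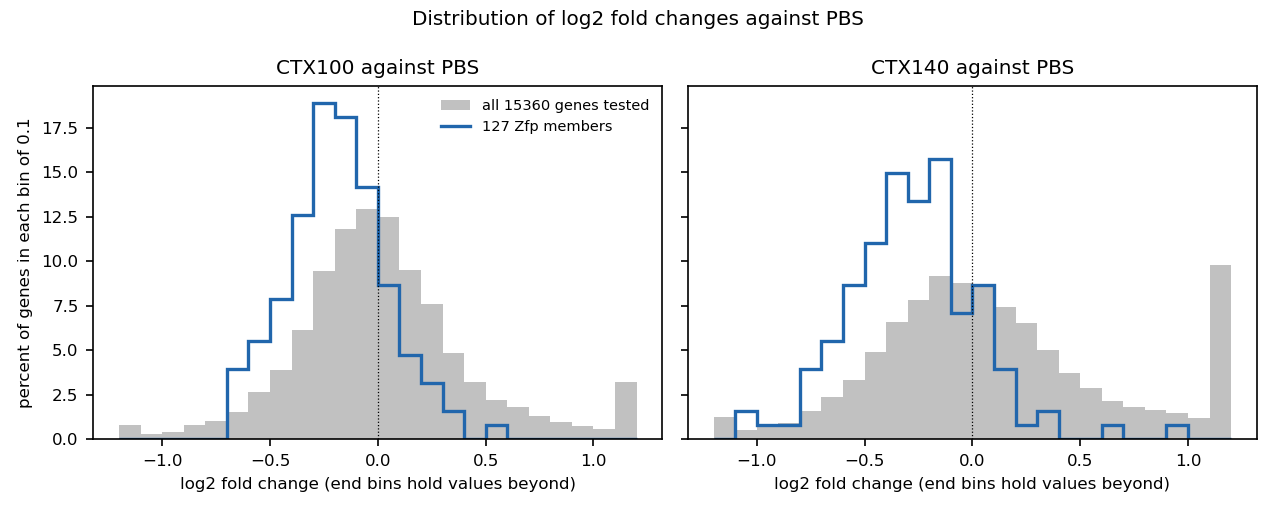
Share of genes (y axis, percent) in bins of 0.1 of the log2 fold change against PBS (x axis) for CTX100 (left) and CTX140 (right); the blue outline is the 127 Zfp members and the grey area all 15360 genes tested, with values beyond the axis in the end bins. The members' outline sits left of 0 at both doses, with medians of -0.19 and -0.27, while the grey area is centred near 0 and has a long upper tail at CTX140.

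At the lower dose the fold changes leaned the same way but few passed the test. In CTX100 against PBS 2 members fell, Zfp760 and Zfp146, and 0 rose, beside 0.397% of all genes called lower and 1.2% called higher by edgeR. At an unadjusted p under 0.05, 31 members were lower and 1 was higher. The share of all genes at that cut was not counted, so these counts have no background to be read against. DESeq2 called 15 members lower and 0 higher, beside 314 lower and 525 higher of 14715 genes. Among the other abundant protein-coding genes 0.585% were called lower and 1.25% higher by edgeR. The median log2 fold change was -0.19 over the members, -0.01 over all genes and -0.03 over the other abundant ones. The value was below 0 for 103 members (81.1%), against 51.7% of all genes and 53.8% of the other abundant ones. In 18 members (14.2%) every CTX100 library was below every PBS library, against 3.55% of all genes and 4.15% of the other abundant ones. In 1 member, Zfp64, every CTX100 library was above (5.17% of all genes). Both calls at this dose lay near the threshold (edgeR adjusted p = 0.0358 and 0.045) and were easily lost. Without PBS replicate 3, PBS replicate 4 or any single CTX100 library 0 members were called lower. Without PBS replicate 1 or 2 the count was 6 or 10. Over all genes the number called lower was 4 and 6 without PBS replicate 3 or 4, and 7 to 24 without a single CTX100 library. It was 95 and 297 without PBS replicate 1 or 2, against 61 with all libraries. Over the 17 alternatives the log2 fold change ran from -0.72 to -0.50 for Zfp760 and from -0.82 to -0.57 for Zfp146. Both comparisons share the 4 PBS libraries, so their values are set side by side and not counted as support for each other.

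Between the doses no member passed the test. In CTX140 against CTX100, 0 members were called in either direction by edgeR, beside 0.775% of all genes called higher and 0.475% called lower. At an unadjusted p under 0.05, 15 members were lower and 1 was higher at CTX140, again with no share of all genes counted. DESeq2 called 3 members lower and 0 higher, beside 427 lower and 823 higher of 15311 genes. In 10 members (7.87%) every CTX140 library was below every CTX100 library, against 3.71% of all genes and 5.49% of the other abundant protein-coding genes. The smallest p-values were those of Zfp608 (log2 fold change -0.51 ± 0.14 SE, adjusted p = 0.0672), Zfp395 (-0.65 ± 0.18, adjusted p = 0.0675) and Zfp462 (-0.51 ± 0.15, adjusted p = 0.0764), none past the threshold.

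Per library, the mean log2 CPM of the 127 members was 4.69, 4.80, 4.85 and 4.93 in PBS replicates 1 to 4. It was 4.65, 4.66, 4.64, 4.65 and 4.60 in the CTX100 libraries and 4.59, 4.43, 4.54, 4.53 and 4.62 in the CTX140 libraries. All 10 treated libraries were thus below all 4 PBS libraries, with PBS replicate 1 closest to them, and the treated groups overlapped each other. The number of members below the PBS mean was 92, 65, 51 and 30 in the PBS libraries, 91 to 104 in CTX100 and 91 to 111 in CTX140. PBS replicate 1 therefore had about as many members below that mean as the treated libraries did.

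**Figure D2:**
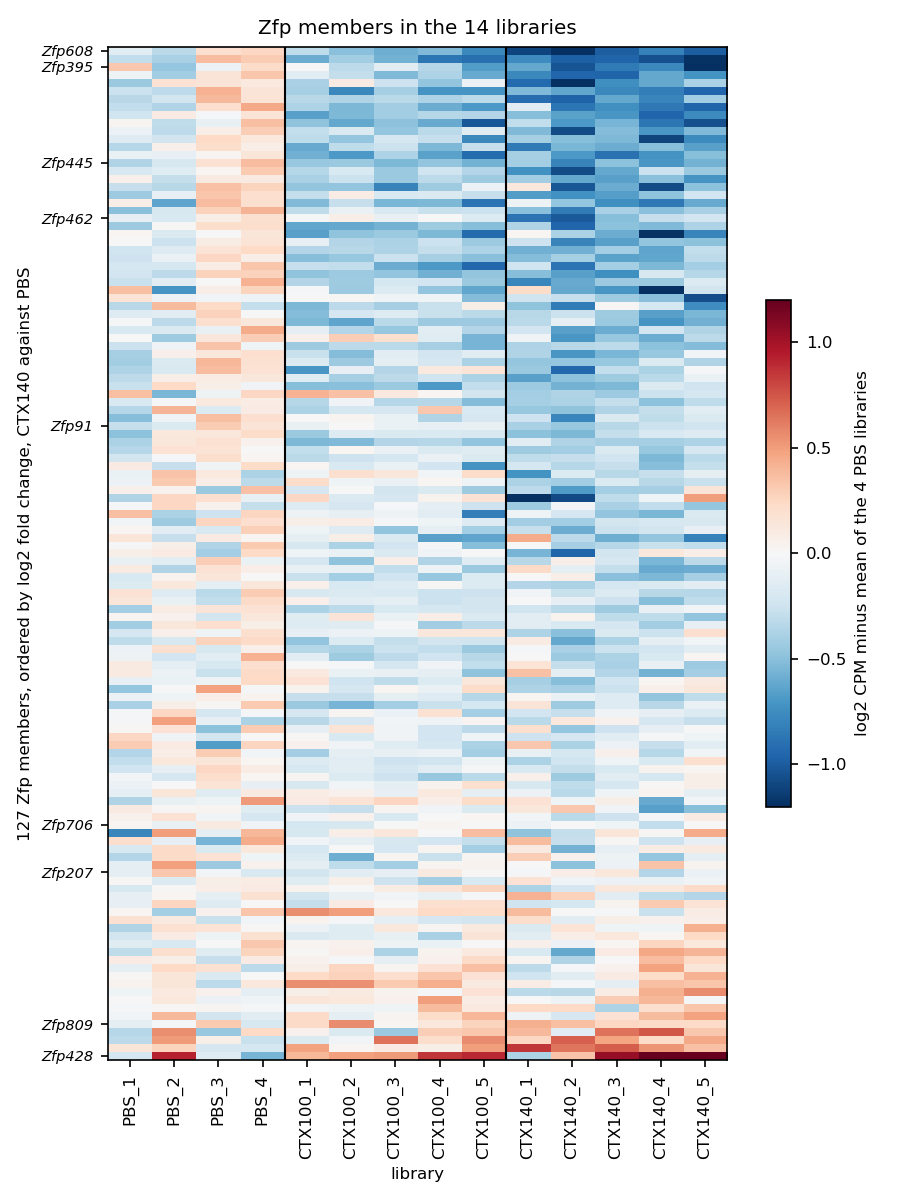
The 127 members (rows, ordered by log2 fold change at CTX140) in the 14 libraries (columns, groups divided by black lines), coloured by log2 CPM minus the mean of the 4 PBS libraries. Blue fills most of the upper rows in all 10 treated libraries, PBS replicates 1 and 2 are bluer than PBS replicates 3 and 4 in those rows, and the lowest row, Zfp428, is red in most CTX140 libraries.

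Zfp608 showed the strongest fall by p-value at CTX140. It encodes a large nuclear protein with a single C2H2 finger found here, related to Zfp609. Its CPM was 34.2, 29.9, 43.0 and 44.4 in PBS tumours, 30.3, 26.3, 24.8, 25.9 and 21.9 in CTX100 tumours and 17.4, 14.6, 18.8, 21.4 and 18.9 in CTX140 tumours. No CTX140 library reached the lowest library of either other group, while CTX100 and PBS overlapped through 1 library each. The log2 fold change at CTX140 was -1.06 ± 0.15 SE (edgeR adjusted p = 0.000305), to 0.481 of the PBS level, and at CTX100 -0.55 ± 0.15 (adjusted p = 0.0654). Exons of Gm26742 overlap it on the other strand, and with no stated use of strand in the counting, reads of the overlap cannot be assigned.

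Zfp146, a small protein made almost wholly of its 10 fingers (the first sequence above), was lower at both doses. It lies at chr7:30161269-30169750. Its CPM was 36.3, 33.9, 57.6 and 54.8 in PBS tumours, 29.3, 33.3, 30.0, 24.4 and 23.8 at CTX100 and 26.2, 22.5, 22.9, 21.4 and 19.5 at CTX140. All treated libraries were below all PBS libraries, and PBS replicates 3 and 4 were well above replicates 1 and 2. The log2 fold change was -1.02 ± 0.17 at CTX140 (adjusted p = 0.000775) and -0.70 ± 0.17 at CTX100 (edgeR adjusted p = 0.045), the latter lost in 9 of 17 alternatives, among them leaving out any single CTX100 library.

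Zfp260, a transcription factor studied in heart muscle, is a near neighbour of Zfp146 at chr7:30094777-30107622. Its CPM was 50.4, 48.6, 80.7 and 67.3 in PBS tumours, 46.0, 35.4, 45.9, 37.1 and 37.1 at CTX100 and 41.9, 39.2, 35.4, 34.0 and 31.3 at CTX140. The groups were divided as for Zfp146, with PBS replicates 3 and 4 highest and no treated library within the PBS range. The log2 fold change was -0.76 ± 0.15 at CTX140 (edgeR adjusted p = 0.00293) and -0.62 ± 0.15 at CTX100, which missed the threshold (adjusted p = 0.0522).

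Zfp760, a KRAB gene with 16 fingers at chr17:21707741-21725636, was the other member called at both doses. Its CPM was 18.0, 17.7, 19.5 and 21.0 in PBS tumours, 12.7, 11.8, 14.7, 12.1 and 10.0 at CTX100 and 14.4, 11.8, 10.2, 11.5 and 13.3 at CTX140. The PBS libraries were close together, and both treated groups lay below them at the same mean of 12.3. The log2 fold change was -0.63 ± 0.14 at CTX100 (edgeR adjusted p = 0.0358, lost in 9 of 17 alternatives) and -0.64 ± 0.14 at CTX140 (adjusted p = 0.00555), and between the doses it was 0.00 ± 0.13.

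Other KRAB genes among the strongest falls were less divided from PBS at CTX100. Zfp266, at chr9:20495068-20521417, had 47.9, 51.8, 79.0 and 67.7 CPM in PBS tumours, 46.7 to 48.4 CPM in the CTX100 libraries and 32.1, 30.9, 39.4, 34.9 and 45.3 CPM at CTX140. Its CTX100 libraries, with an SD of 0.772, sat at the lower edge of the PBS range, and the CTX140 libraries were all lower still (-0.75 ± 0.15, edgeR adjusted p = 0.00244). Zfp334, at chr2:165374264-165388259, fell from 19.97 ± 4.27 CPM (SD, n = 4) to 11.3 ± 1.17 (n = 5) at CTX140 (-0.83 ± 0.16). Zfp606 fell from 15.9 ± 1.9 to 9.71 ± 1.08 CPM (-0.71 ± 0.14), Zfp212 from 22.4 ± 2.75 to 14.9 ± 1.26 (-0.58 ± 0.12) and Zfp942 from 21.9 ± 3.41 to 14.0 ± 1.24 (-0.64 ± 0.14). In each of these 4 the CTX140 libraries were all below the PBS libraries, and their CTX100 fold changes, -0.38 to -0.46, did not pass the test.

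Zfp445 encodes a KRAB protein known for keeping imprinted genes methylated. It lies at chr9:122844529-122866006, and its CPM was 69.5, 78.3, 101 and 115 in PBS tumours. It was 65.0, 65.7, 61.6, 64.1 and 60.3 at CTX100 and 67.5, 51.3, 63.5, 55.2 and 60.3 at CTX140. Treated libraries were all below PBS replicate 1, the lowest PBS library, by a margin far smaller than the spread of the PBS libraries themselves. The log2 fold change was -0.61 ± 0.13 at CTX140 (edgeR adjusted p = 0.00492) and -0.52 ± 0.13 at CTX100 (adjusted p = 0.0554). Zfp809, which silences murine leukaemia virus through its primer binding site, was the only other member on the list of retroelement and imprint regulators, and it gave 12.4 ± 1.98 CPM in PBS, 14.6 ± 2.21 at CTX100 and 15.1 ± 0.957 at CTX140 (0.29 ± 0.14 at CTX140, adjusted p = 0.163).

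Zfp395 and Zfp462 differed from the genes above in that their CTX100 levels stayed nearer to PBS. Zfp395, whose protein has a single C2H2 finger, had 56.7, 32.9, 43.3 and 52.9 CPM in PBS tumours, 45.3, 36.6, 41.4, 35.9 and 28.6 at CTX100 and 29.8, 22.2, 25.3, 26.6 and 15.7 at CTX140. CTX140 did not overlap PBS and overlapped CTX100 through a single library of each. Its log2 fold change at CTX140 was -0.96 ± 0.19 (edgeR adjusted p = 0.00288). Zfp462, a many-fingered protein tied to heterochromatin, had 23.9, 22.6, 27.1 and 29.2 CPM in PBS tumours, 25.3, 26.9, 24.0, 25.6 and 22.8 at CTX100 and 13.8, 12.7, 17.9, 21.1 and 21.8 at CTX140. Its CTX100 libraries lay among the PBS ones, at -0.04 ± 0.16, and all CTX140 libraries were below both groups (-0.56 ± 0.16 against PBS, adjusted p = 0.0207). That call was lost when only the PBS and CTX140 libraries were fitted and without PBS replicate 3 or PBS replicate 4. As given above, the difference between the doses itself did not pass the test for either gene.

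Zfp36 was the only member that rose. It encodes tristetraprolin, which binds AU-rich elements of cytokine and other messengers and speeds their decay. Its CPM was 66.7, 72.8, 52.4 and 52.1 in PBS tumours, 84.2, 61.4, 64.7, 63.3 and 85.7 at CTX100 and 109, 94.3, 99.6, 87.2 and 76.8 at CTX140. All CTX140 libraries exceeded all PBS libraries, and CTX100 spanned the gap between them. The log2 fold change was 0.61 ± 0.15 at CTX140 (edgeR adjusted p = 0.00838), or 1.53 times the PBS level, and 0.24 ± 0.15 at CTX100 (adjusted p = 0.418). It lies at chr7:28376784-28380253 with exons of Gm44710 on the other strand, so the limit on strand given for Zfp608 applies. DESeq2 called 2 members higher, beside 2184 of 15311 genes.

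**Figure D3:**
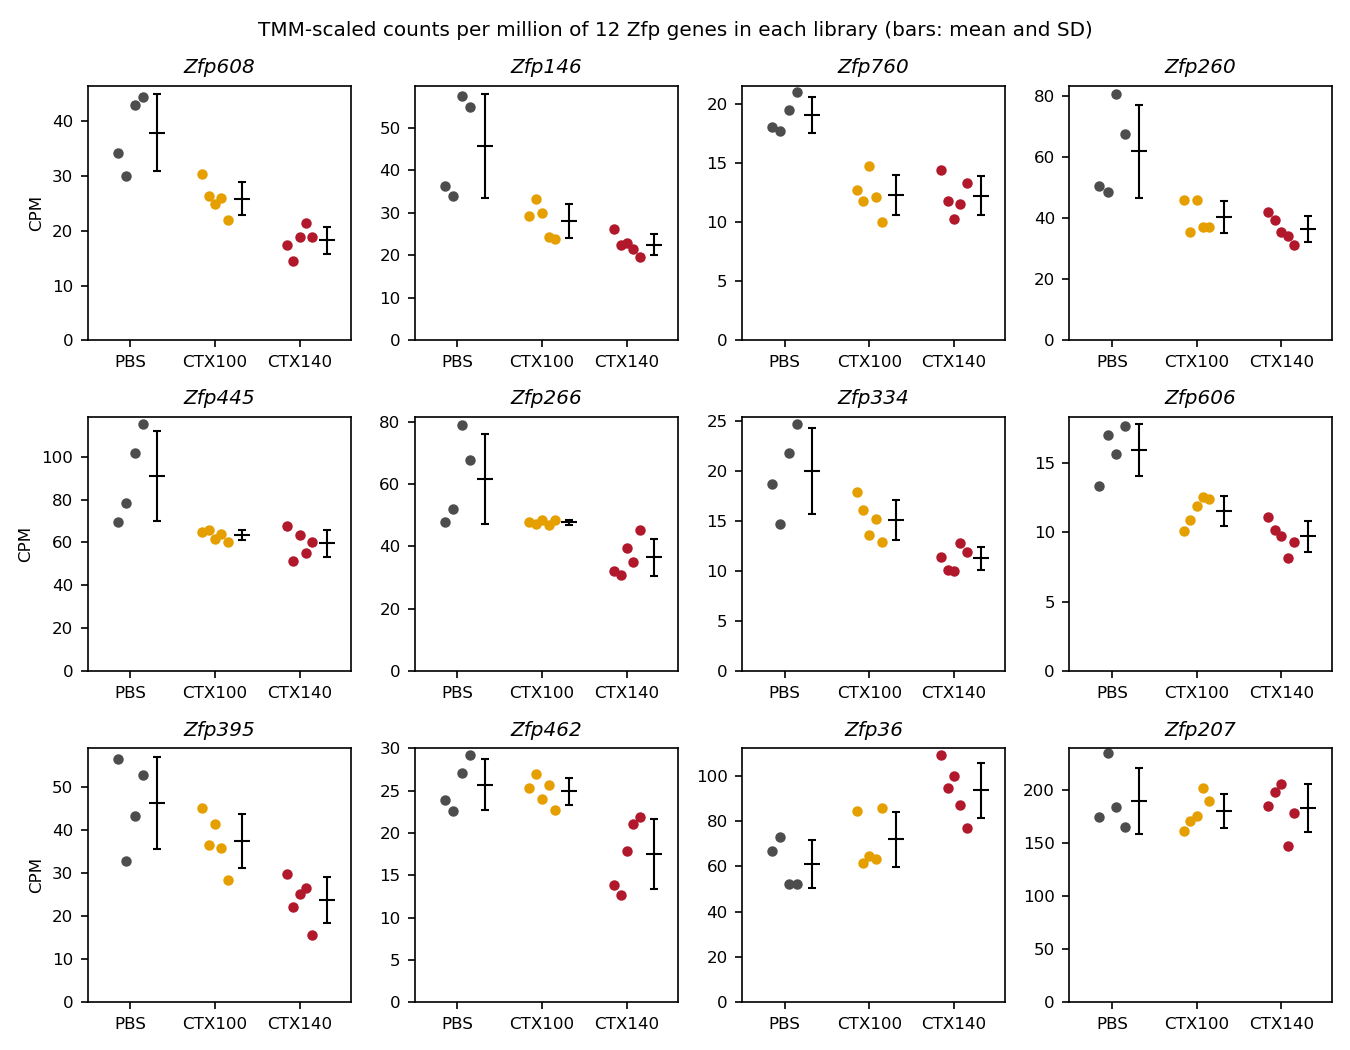
CPM (y axes, from 0) of 12 members in each library, with points for libraries by group and bars for the mean and SD of each group. Zfp760 lies at the same level in both treated groups, Zfp462 and Zfp395 are lowest at CTX140, Zfp36 is highest at CTX140, and Zfp207 overlaps in all 3 groups.

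Zfp428 had a larger rise in the mean than Zfp36 without passing the test, and is named here after its values were seen. Its CPM was 8.8, 19.4, 9.15 and 6.92 in PBS tumours, 13.5, 14.3, 14.5, 18.5 and 19.1 at CTX100 and 7.85, 13.0, 21.0, 29.6 and 34.3 at CTX140. The CTX140 libraries ranged from among the lowest to the highest of all, and the log2 fold change was 0.94 ± 0.38 (edgeR adjusted p = 0.0922). It passed the threshold in 3 of 17 alternatives, DESeq2 and leaving out PBS replicate 2 or CTX140 replicate 1.

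Mean FPKM over the 14 libraries was highest for Zfp706 (37.8), Zfp503 (31.0), Zfp207 (27.5), Zfp36 (21.9) and Zfp598 (20.8). It was lowest for Zfp318 (0.949). Zfp706, a small protein, had 196 ± 11.3 CPM in PBS and 186 ± 15 at CTX140 (-0.08 ± 0.10, edgeR adjusted p = 0.595). Zfp503, a transcriptional repressor of the NET family with no C2H2 finger found here, had 53.0, 65.6, 113, 135 and 197 CPM at CTX140 against 108 to 165 in PBS, so that the CTX140 libraries spread beyond both ends of the PBS range (-0.33 ± 0.29, adjusted p = 0.45). Apart from Zfp36, none of these 5 passed the test at either dose.

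Of 8 members that act on RNA and ribosomes, Zfp36 rose and Zfp638 fell at CTX140, and the median log2 fold change was -0.16, against 1 and 36 of all 127 members and a median of -0.27. Zfp638, which takes part in silencing unintegrated retroviral DNA, had 78.1 ± 12.9 CPM in PBS, 56.8 ± 3.71 at CTX100 and 61.5 ± 5.2 at CTX140 (-0.34 ± 0.12 at CTX140, edgeR adjusted p = 0.0445). That call was lost in 13 of 17 alternatives. Zfp598, the ubiquitin ligase that senses collided ribosomes, stood at 70.2 ± 7.22 CPM in PBS and 65.2 ± 5.84 at CTX140 (adjusted p = 0.491). Zfp622, a factor of large ribosomal subunit assembly, stood at 87.2 ± 15.1 and 91.8 ± 18.7 CPM (adjusted p = 0.753). The splicing-linked Zfp326 and Zfp830 and the RNA binders Zfp106 and Zfp346 did not pass the test, with log2 fold changes of -0.21, -0.23, -0.31 and 0.07. Zfp207, which loads checkpoint proteins onto kinetochores in mitosis, had 189.8 ± 31.3 CPM in PBS, 179.98 ± 15.99 at CTX100 and 183 ± 23.0 at CTX140 (-0.05 ± 0.13 at CTX140, adjusted p = 0.804).

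Zfp91, a ubiquitin ligase of the non-canonical NF-kappa-B pathway, was among the members that fell. Its CPM was 148 ± 28 in PBS, 139 ± 3.81 at CTX100 and 116 ± 7.12 at CTX140 (-0.35 ± 0.11 at CTX140, edgeR adjusted p = 0.0383, lost in 10 of 17 alternatives).

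Of 15 members known from chromatin and promoter work, 5 fell at CTX140 and 0 rose, with a median log2 fold change of -0.34, where 36 of all 127 members (28.3%) fell. The 5 were Zfp827 (-0.67 ± 0.15), which recruits the NuRD complex to telomeres, Zfp292 (-0.56 ± 0.16), Zfp462, Zfp281 (-0.39 ± 0.13), a regulator of pluripotency genes, and Zfp148 (-0.34 ± 0.10), which binds GC-rich promoters. Zfp292, Zfp281 and Zfp148 lost the call in 3, 7 and 6 of 17 alternatives and Zfp827 in 0. Zfp143, an activator bound at many promoters, had 21.0 ± 1.55 CPM in PBS and 22.9 ± 6.57 at CTX140 (adjusted p = 0.614 by edgeR). Zfp217, a corepressor subunit whose human counterpart is often amplified in breast cancer, had 47.2 ± 8.96 CPM in PBS and 39.0 ± 4.4 at CTX140 (-0.27 ± 0.14, adjusted p = 0.169). At CTX100 0 of these 15 passed the test. Neither did any of the 3 members known from mesenchyme and mammary tissue, Zfp503, Zfp516 and Zfp703, at either dose. Zfp703, whose human counterpart is amplified in luminal breast cancer, stood at 32.2 ± 6.56, 40.0 ± 5.28 and 32.8 ± 5.46 CPM in PBS, CTX100 and CTX140.

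The falls were spread over the family's structural classes. At CTX140, 15 of 44 members with a KRAB box found by pattern (34.1%) fell, with a median of -0.33. Of the 83 members with no match to the pattern, 21 (25.3%) fell, with a median of -0.25. Members whose box the pattern missed would be counted among the 83. By number of fingers, 20 of 49 members with 10 or more fell (median -0.37), 11 of 51 with 4 to 9 (-0.23) and 5 of 27 with 0 to 3 (-0.21). Of the 8 SCAN members, 4 fell, and all 8 had a negative fold change, beside 28.3% and 83.5% of all members. Members near another Zfp gene and members alone fell at like shares, 17 of 58 and 19 of 69. In the third of members with the lowest FPKM 16 of 42 fell, and in the third with the highest 9 of 42. These splits overlap one another, and the differences between classes were not tested.

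**Figure D4:**
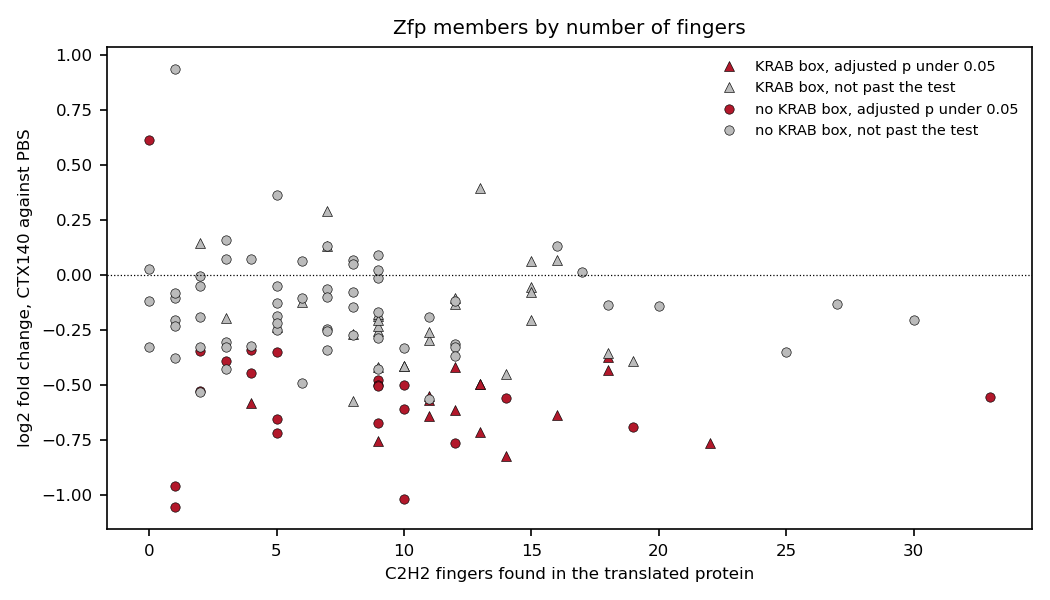
Log2 fold change at CTX140 against PBS (y axis) by number of C2H2 fingers (x axis) for the 127 members. Triangles have a KRAB box found by pattern, circles have no match, and red marks an adjusted p under 0.05. Red points below 0 occur from 1 to 33 fingers, and the only red point above 0 is Zfp36, with 0 fingers.

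On chromosome 17 all 17 members had a negative log2 fold change at CTX140, beside 83.5% of all members. The median of the 17 was -0.36, and 5 of them fell (Zfp160, Zfp760, Zfp942, Zfp944 and Zfp81, all with KRAB boxes). On chromosome 7, 18 of 24 members were below 0 and 6 fell. The share called was 29.4% on chromosome 17 and 25% on chromosome 7, close to the 28.3% over all members. Neighbouring genes can share reads where their sequences are alike. In 110 members no 100-base stretch of the transcripts recurred exactly in another gene, and 7 members shared more than 5% of such stretches, of which none is among the genes named with values above.

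Promoters were looked at for members with a RefSeq window, which spans 250 bases before to 50 after the start. This gave 130 windows for 103 members, on GRCm38.p6. On both strands 13 motifs were searched, and those that contain GGAAG overlap one another. GGGCGG was in 60.8% of member windows and 35.7% of all 32851 windows, CCAAT in 41.5% and 37.4%, GGAAGTG in 24.6% and 11.0%, CCGGAAG in 20.8% and 8.86% and CGGAAGT in 17.7% and 6.42%. TGCGCA was in 13.8% and 7.76%, GCATGCG in 10.8% and 3.58%, TCTCGCGA in 5.38% and 0.995%, ACTACAA in 5.38% and 3.24% and AAGATGGC in 4.62% and 2.75%. TATAAA was in 5.38% and 13.6%, CACGTG in 4.62% and 7.15% and CCCAGNATG in 1.54% and 2.04%. All windows include many genes with low or no counts here, so these shares describe the members' promoters and do not set them apart from other abundant genes. The 100 bases before the RefSeq start are shown for the pair called at both doses, with matches to these motifs in capitals, at chr7:30169742-30169841 (minus strand) for Zfp146 and chr17:21707641-21707740 (plus strand) for Zfp760.
Zfp146: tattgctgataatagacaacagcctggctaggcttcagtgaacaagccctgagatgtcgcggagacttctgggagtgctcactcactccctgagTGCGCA
Zfp760: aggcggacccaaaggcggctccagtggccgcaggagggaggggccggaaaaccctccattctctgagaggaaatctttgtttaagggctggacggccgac
The Zfp146 stretch ends in TGCGCA, which lies before the RefSeq start but inside the gene span given above for Zfp146. The Zfp760 stretch holds none of the 13 motifs.

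The partners through which KRAB proteins act were read from a list of 27 genes, all of them tested. At CTX140 5 fell and 1 rose, with a median log2 fold change of -0.09, where 10.1% of all genes tested fell and 11.1% rose. Trim28 itself stood at 257 ± 26.5 CPM in PBS, 257 ± 13.9 at CTX100 and 218 ± 20 at CTX140 (adjusted p = 0.104 by edgeR at CTX140). Those that fell were the heterochromatin proteins Cbx3 (-0.76 ± 0.14, adjusted p = 0.00172) and Cbx5 (-0.51 ± 0.14, adjusted p = 0.0178), the deacetylase Hdac1 (-0.55 ± 0.13, adjusted p = 0.00816), the methyltransferase Ehmt1 (-0.42 ± 0.12, adjusted p = 0.0215) and the HUSH subunit Mphosph8 (-0.65 ± 0.16, adjusted p = 0.0101). Cbx5 and Ehmt1 each lost the call in 3 of 17 alternatives, leaving out PBS replicate 4 being among them for both. The histone chaperone Daxx rose (0.92 ± 0.17, adjusted p = 0.00208). At CTX100 only Uhrf1, which guides maintenance methylation of DNA, passed the edgeR test (0.47 ± 0.11, adjusted p = 0.049), a call lost in 13 of 17 alternatives, and it was lower at CTX140 than at CTX100 (-0.55 ± 0.11, adjusted p = 0.0284), a call lost in 7 of 18 alternatives, each leaving out 1 CTX100 or CTX140 library (highest adjusted p = 0.086).

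Other zinc finger families were read against all genes tested at CTX140, of which 10.1% fell and 11.1% rose, and against the other abundant coding genes, of which 14.5% fell (median log2 fold change -0.05). Of 187 tested Zfp genes below the count limit 21 fell (11.2%) and 4 rose (median -0.18), where lower counts give the test less to work with. Of 37 Zbtb genes, transcription factors with a BTB domain, 8 fell (21.6%) and 1 rose (median -0.06). Of 17 Zscan and Zkscan genes, which carry SCAN domains, 4 fell (23.5%) and 0 rose (median -0.22). Of 12 Klf genes, regulators of growth and differentiation, 1 fell (8.33%) and 0 rose (median -0.12). Below 0 lay 68.4% of these rarer Zfp, 59.5% of Zbtb, 88.2% of Zscan and Zkscan and 50% of Klf genes. At CTX100 these shares were 80.7%, 73%, 82.4% and 50%, beside 81.1% of the members and 51.7% of all genes. The CTX100 medians were -0.24, -0.15, -0.25 and -0.03, beside -0.19 for the members. The differences between families were not tested.

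Markers of some other cell types moved with the treatment beside the members. Of all genes tested, 11.1% were called higher at CTX140 and 1.2% at CTX100. Of 11 fibroblast markers 9 rose at CTX140 and 3 at CTX100, and their mean log2 CPM was 5.81 ± 0.12 in PBS, 6.65 ± 0.254 at CTX100 and 7.48 ± 0.469 at CTX140. Their summed CPM ran from 984 to 1511 in PBS, 1537 to 2577 at CTX100 and 2620 to 7320 at CTX140, with no overlap between groups. Within CTX140 the library with the highest fibroblast level, replicate 2 at 8.16, had the lowest member level, and the library with the lowest fibroblast level, replicate 5 at 6.85, had the highest member level. Within CTX100 replicate 5 was lowest in both, and within PBS replicate 4 was highest in both, at 5.95 and 4.93. CTX140 replicate 2 also had the highest macrophage marker level of all libraries, 8.24. At CTX140 all 6 tested adipocyte markers rose (summed CPM 7.3 to 55.1 in PBS and 111 to 586 at CTX140), as did 3 of 4 mast cell, 4 of 8 T cell, 1 of 9 macrophage, 1 of 6 neutrophil and 5 of 11 carcinoma epithelium markers. The macrophage and neutrophil counts lie near the 11.1% of all genes. The mean log2 CPM of the T cell list was 6.35 and 4.66 in CTX140 replicates 1 and 2. In CTX140 replicates 3 to 5 it was 3.62, 3.14 and 2.89, within the PBS range of 2.38 to 3.78. The mean log2 CPM of the epithelial list was 3.32 ± 0.424 in PBS, 3.93 ± 0.235 at CTX100 and 4.68 ± 0.537 at CTX140. Its highest PBS library, 3.61, was below its lowest CTX140 library, 4.29. Its summed CPM, mostly that of Krt8 and Krt18, ran from 1480.4 to 2308 in PBS and 1285 to 2005 at CTX140. None of 7 endothelial, 2 tested B cell, 3 tested skeletal muscle or 3 nuclear RNA markers passed the test at either dose. Of 8 cell division genes 4 rose at CTX100 and 1 fell at CTX140, where 10.1% of all genes were called lower. The B cell gene Ms4a1, the muscle genes Myh4 and Ckm and the adipocyte gene Lep were too low to be tested. The part of these cell types in the members' lower levels was not tested.

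**Figure D5:**
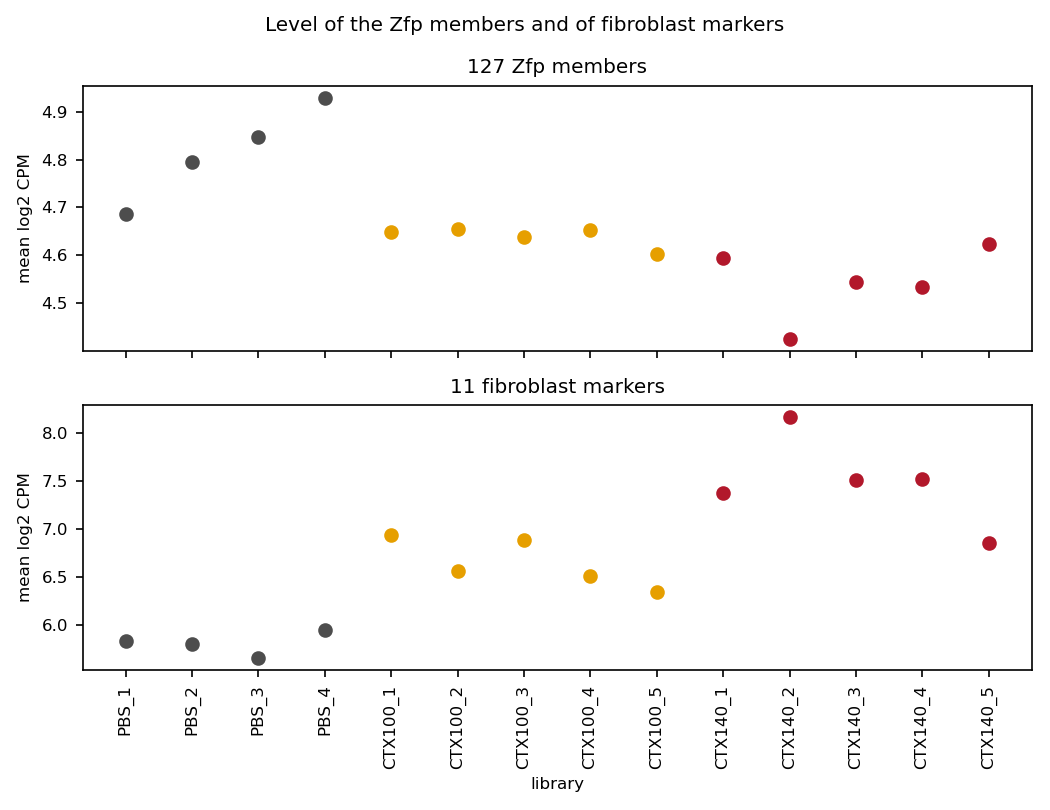
Mean log2 CPM per library (y axes) of the 127 Zfp members (top) and of 11 fibroblast markers (bottom), libraries along the x axis, coloured by group. The members run from 4.93 in PBS replicate 4 down to 4.43 in CTX140 replicate 2. Fibroblast markers are highest in CTX140 replicate 2, 8.16, and among the PBS libraries in PBS replicate 4, 5.95.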

How the data were processed

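Raw read counts per gene and FPKM values were deposited by the authors for the 14 libraries. The submitters' processing notes name DESeq2 and mm10; no source used here gives an aligner, a counter or a strand setting. The deposited counts were tested with edgeR 4.0.16 (R 4.3.3): TMM factors, its default filter by expression (15360 of 54532 genes kept), and the robust quasi-likelihood F test in a single fit of all 14 libraries with Benjamini-Hochberg adjustment over all genes, called at 0.05. Standard errors are the absolute log2 fold change divided by the root of F. The deposited FPKM values, scaled by the authors to gene length and depth, were used for levels between genes and, as log2(FPKM + 1), in limma 3.58.1. DESeq2 1.42.0 was an alternative.

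The members and lists were chosen with earlier results of these data known. Genes named with values were the called members with the 10 smallest p-values in each direction and dose, the 3 smallest between doses, the 5 with the highest FPKM, those at the count limit and the role lists; Zfp64 and Zfp428 and the members of chromosome 17 were named after their values were seen. C2H2 fingers (12 residues between the inner cysteine and histidine), KRAB boxes and SCAN domains were found by pattern in GENCODE M21 coding sequences translated here, in place of the RefSeq proteins first planned. The KRAB and SCAN patterns were widened after known boxes were missed and with fold changes already seen, so those counts are approximate. The comparison with other abundant protein-coding genes was also added after results were seen. No pair of libraries was a repeat of the same library (highest correlation 0.986). The test was checked on simulated counts. Alternatives were other scaling factors, tools and filters, other count limits, fits of only the groups compared, a replicate block and leaving out each library.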

Additional observations from a re-analysis of the deposited data

Results flagged for a closer look

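Among 132 groups of values (42 named members and 2 summed levels in 3 groups), 9 had a single library far from the others by Dixon's test at the 95% level, or 6.82%, where chance flags about 1 in 20. In PBS tumours these were Zfp212 at 18.3 CPM in replicate 2 (the others 23.3 to 24.1), Zfp281 at 57.9 in replicate 1 (76.2 to 79.1), Zfp346 at 16.1 in replicate 3 (20.5 to 20.9) and Zfp830 at 15.7 in replicate 1 (22.1 to 23.4). At CTX100 Zfp91 was at 145 CPM in replicate 2 (136 to 138 in the others). At CTX140 they were Zfp148 at 43.7 in replicate 4 (51.0 to 53.9), Zfp292 at 38.3 in replicate 2 (48.4 to 52.4), Zfp638 at 70.8 in replicate 1 (58.5 to 60.0) and Zfp706 at 159.99 in replicate 4 (187 to 197). The low PBS values of Zfp212 and Zfp281 and the high CTX140 value of Zfp638 make those falls smaller, and the low CTX140 values of Zfp148 and Zfp292 make theirs larger.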

How the results depend on the processing

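Over the alternatives, members called lower at CTX140 numbered 13 to 45 around 36: only the groups compared gave 19, a limit of 500 counts 13, and leaving out a library 19 to 41. Members called higher there numbered 1, 2 by DESeq2 and with a limit of 100 counts, and 1 to 3 with a library left out. Members called lower at CTX100 numbered 2, against 15 by DESeq2, 6 with only the groups compared, 1 by limma, 1 with a limit of 500 counts and 0 to 10 with a library left out. Other count limits change how many genes are members, so their counts are no loss or gain against 36 or 2. Between the doses members called lower numbered 0, against 3 by DESeq2, 1 without the filter and 0 to 2 with a library left out. Over all genes, DESeq2 called 525 higher and 314 lower at CTX100 against 184 and 61, and 823 higher and 427 lower between the doses against 119 and 73. Only the groups compared gave 365 higher and 164 lower at CTX100 and 1019 higher and 859 lower at CTX140 against 1711 and 1557, and limma gave 107 higher at CTX100. Leaving out a library gave 13 to 389 higher and 4 to 297 lower at CTX100, 1039 to 1970 higher and 885 to 1924 lower at CTX140, and 0 to 684 higher and 0 to 323 lower between the doses. The scaling factors moved the median of all genes by at most 0.04.

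Same-numbered libraries did not pair: their deviations correlated above 0.1 in 1 of 4, 2 of 4 and 3 of 5 pairs, and few correlated best with their own number (1, 1 and 2). With the replicate block, 30 members were lower at CTX140, 0 at CTX100 and 1 between the doses, and over all genes 22 were lower at CTX100 and 215 higher between the doses.

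The 10 strongest falls at CTX140, Zfp760, Zfp827 and the rise of Zfp36 kept direction and call in all 17 alternatives. Values near 0 that missed the test changed sign, in each case when a library was left out: over the alternatives Zfp462 ran from -0.103 to 0.014 and Zfp91 from -0.186 to 0.0144 at CTX100, and at CTX140 Zfp207 ran from -0.124 to 0.0639, Zfp622 from -0.0502 to 0.163, Zfp346 from -0.0200 to 0.165, Zfp143 from -0.0017 to 0.230, Zfp592 from -0.238 to 0.0718 and Zfp703 from -0.0958 to 0.133. Zfp703 also did so without the filter on low counts, at -0.00346.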
